A study of Mus musculus with 29 samples.

Results

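Dendritic cells of mouse peripheral blood are described here: the cells that the authors' deposited annotation of the blood libraries places in the coarse type DC. There were 508 such cells among 51709 blood cells, in a series that holds 106977 cells from blood and brain. Gene expression was measured by Drop-seq, in which each cell meets a barcoded bead in a droplet. All blood came from young male C57BL/6J mice of 8 to 10 weeks, with blood pooled from 2 mice for each library. The 4 sham libraries were drawn at day 2 after sham surgery, and stroke, in which the middle cerebral artery was closed for a time, was followed at day 2 in 4 libraries and at day 14 in 3 libraries. Red cells were lysed and Ter-119-positive cells removed, and Brilliant Blue G, a P2X7 receptor antagonist, and actinomycin D, which blocks transcription, were present in all groups during isolation. No sham blood at day 14 was used here, so the effect of stroke and that of time cannot be told apart at day 14. Each library has its own study identifier in the deposited annotation, and what it stands for is not stated. The identifiers of the day 14 libraries have no stem in common with those of other libraries. Any batch they mark and group therefore cannot be told apart there either. Identifiers of sham and day 2 replicate 1 share a stem, as do those of sham and day 2 replicate 2. Those of sham and day 2 replicates 3 and 4 share none with any library. The main tests left the sharing in replicates 1 and 2 out. The labels otherwise separate the libraries by pool of mice and say no more about their independence, so p-values measure the spread between these pools.

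Dendritic cells take up antigen and present it to T cells on MHC class II molecules, whose peptide loading needs the invariant chain Cd74. They develop in the bone marrow under Flt3, the receptor of the growth factor FLT3 ligand, and pass through blood to tissues at low abundance. Conventional dendritic cells fall into a Batf3-dependent and an Irf4-dependent lineage, and plasmacytoid dendritic cells, which carry Siglech in the mouse, are specialised producers of type I interferon.

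The blood libraries held 2360 to 6328 cells and 966914 to 5232662 summed counts, and their median cell had 341 to 694 counts. Dendritic cells had a median of 797 counts, against 677 in monocytes and 422 in B cells. Their number per library was 34, 28, 17 and 12 in sham replicates 1 to 4, 18, 13, 3 and 29 in stroke day 2 replicates 1 to 4, and 109, 166 and 79 at stroke day 14. Stroke day 2 replicate 3 stood apart with 3 dendritic cells, and it also had the lowest neutrophil share of the day 2 stroke libraries (11.7%, against 54.4% to 69.6% in the others). It was left out of every test of gene expression in dendritic cells and kept in the tests of shares. Summed over dendritic cells, the 10 other libraries held 7129 to 173888 counts. Between libraries, 87 cell barcodes were shared, 2 of them by dendritic cells. Scrublet, a doublet caller, marked 46 of 51709 cells, too few for it to have worked, so doublets were not removed. Of the marked cells 9 were dendritic: 6 of 91 in sham, 0 of 63 at day 2 and 3 of 354 at day 14.

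Of the markers named for these cells, Flt3 was highest in them, while Cd74 did not set them apart from B cells. Levels are counts per 1000000 counts (CPM) in the pooled cells of a type, averaged over the 3 groups with equal weight; since the annotation was made from the same cells, these levels are a description. Flt3 stood at 244 CPM in dendritic cells, 21.8 in monocytes and 3.72 in B cells. A count of Flt3 was present in 83 of 508 dendritic cells (16.3%, exact binomial 95% interval 13.2% to 19.8%) and in 1.63% of monocytes. In T cells, which should lack the gene, the share was 0.0289% at a median depth of 516 counts. After each cell was thinned to 500 counts, which kept 390 dendritic cells and 4403 monocytes, the shares were 10.0% and 0.908%. Cd74 reached 13778 CPM, below the 17100 CPM of B cells and above the 1289 CPM of monocytes. A count of Cd74 was present in 78.5% of dendritic cells, 98.5% of B cells and 25.2% of monocytes. Zbtb46, a transcription factor of conventional dendritic cells, was at 20.8 CPM in dendritic cells and 0 in monocytes. All intervals here cover counting error only.

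The 20 genes with the highest ratio of dendritic cells to the next of the 5 blood types of 500 or more cells, among genes of 200 CPM or more, joined plasmacytoid and conventional markers. Siglech, a plasmacytoid lectin receptor, stood at 919 CPM against 0.539 in B cells, the next type. Cd209a, a C-type lectin of conventional type 2 dendritic cells and of monocyte-derived dendritic cells, was at 1054 CPM against 13.2 in monocytes. Clec10a, another lectin of that lineage, was at 431 CPM against 23.4, and the cyclin Ccnd1 at 350 CPM against 2.19. Among the others were Cox6a2, Flt3, Bst2, Ckb, H2-DMb1, Ctsl, Tmem176a, Syngr2, Tmem176b, Rnd3, Ptms, Manf, Cbfa2t3, H2afy and Kmo.

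The marker lists of lymphocytes summed to far lower levels in dendritic cells than in their own cells. Here a gene counts as detected where its counts over all dendritic cells sum to 0.5 or more. Of 10 B cell markers 8 were detected, with a summed level of 370 CPM against 15696 CPM in B cells. Of 10 T cell markers 6 were detected, with 90.1 CPM against 8806 CPM in T cells. NK cell markers summed to 38.0 CPM against 42129 CPM in NK cells; of 10 such markers 3 were detected, with Ncr1 at 0, and of 8 basophil markers 1 was. Of 7 platelet markers 1 was detected. All 12 markers of nonclassical monocytes were, with a summed level of 431 CPM against 2294 CPM in monocytes. The summed level of the 12 monocyte markers was 13887 CPM in dendritic cells and 58406 in monocytes, and Chil3, a chitinase-like protein of classical monocytes, was at 31.5 CPM against 3981. Of 11 neutrophil markers 9 were detected, with a summed level of 965 CPM against 233098 CPM in neutrophils. The S100a8 and S100a9 counts of dendritic cells lay almost wholly in 1 cell of sham replicate 1, and B cells held at most 0.393 CPM of both in any library.

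The MHC class II genes summed to similar levels in dendritic cells and in B cells, with differences between genes. The 15 genes of the list were all detected in dendritic cells, and 12 reached 50 CPM. Their summed level was 35048 CPM in dendritic cells, 33350.5 in B cells and 5880 in monocytes. H2-Ab1 and H2-Aa, the beta and alpha chain of the I-A molecule, stood at 7821 and 5541 CPM, and H2-Eb1, the beta chain of I-E, at 3620 CPM. H2-DMb1, a chain of the molecule that loads peptides, was at 819 CPM against 141 in B cells. In B cells the other order held for H2-Oa and H2-DMb2, of the DO modulator and a second DM beta chain: 341 and 752 CPM, against 92.2 and 85.5 in dendritic cells. Ciita, the class II transactivator, was at 106 CPM in dendritic cells and 158 in B cells.

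The promoters of 2 of these genes, from RefSeq on GRCm38.p6, are given because they carry the CCAAT-type Y box through which class II genes are known to be controlled. Each run is the 250 bases before the transcription start, 5′ to 3′ on the gene's strand, and capitals mark the motif CTGATTGG. H2-Aa lies on the minus strand at chr17:34287824-34288073, with the motif 51 bases before the start, and H2-Eb1 on the plus strand at chr17:34305617-34305866, with the motif 62 bases before it.
H2-Aa: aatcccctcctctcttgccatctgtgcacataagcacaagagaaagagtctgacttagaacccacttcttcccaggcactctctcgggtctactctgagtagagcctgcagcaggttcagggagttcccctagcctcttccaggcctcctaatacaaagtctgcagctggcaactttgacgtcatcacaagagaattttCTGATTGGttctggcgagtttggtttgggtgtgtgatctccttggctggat
H2-Eb1: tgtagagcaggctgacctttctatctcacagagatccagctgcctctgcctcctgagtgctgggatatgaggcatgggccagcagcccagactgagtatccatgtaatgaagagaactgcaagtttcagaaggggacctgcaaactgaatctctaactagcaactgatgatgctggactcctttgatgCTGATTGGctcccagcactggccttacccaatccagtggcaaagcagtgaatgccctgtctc
The motif was searched on both strands, as CTGATTGG and CCAATCAG. Of 15 class II genes 12 matched an entry, and 4 held it: H2-Aa, H2-Eb1, H2-Eb2 (103 bases before the start) and H2-Oa (46 bases). Among 32851 promoters of the same length, 1258 (3.83%) held it. A match describes the letters and not a bound site.

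The deposited annotation splits the dendritic cells into the codes DC1 to DC5, with 175, 119, 90, 63 and 61 cells. The code names are the authors' and do not stand for the lineages called type 1 and type 2 elsewhere. Their levels below are pooled CPM and, since the codes were drawn from the same cells, are given without a test. DC1, DC2 and DC4 shared high class II levels, while DC3 and DC5 had low ones: the list summed to 55200, 33092 and 50126 CPM in the first group and to 10305 and 8979 CPM in the second.

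DC1 carried the general conventional programme. Its leading genes were Naaa, a lysosomal amidase, Cst3, a cysteine protease inhibitor at 9534 CPM, Ckb, Calr and Id2, a transcription factor of conventional dendritic cells at 784 CPM. Cd209a stood at 1835 CPM and Clec10a at 613 CPM. Cells with a count of Cd209a made up 54.3% (46.6% to 61.8%) of DC1. Ifi205, found in type 1 conventional cells, was also highest here (431 CPM), and Siglech was at 5.41 CPM.

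DC2 joined class II with monocyte genes. Apoe, the apolipoprotein of macrophages and monocytes, led it with 1253 CPM, 16.1 times the next code, and Lyz2, lysozyme, reached 38168 CPM. F13a1, the factor XIII subunit of classical monocytes, was at 1488 CPM. The 12 monocyte markers summed to 47917 CPM, near the 58406 CPM of monocytes, but Chil3 was at 83.9 CPM. Both sums are mostly Lyz2, which was 29309 to 56683 CPM in the monocytes of single libraries, so their likeness is largely that of 1 gene. Pooled over groups, Cd209a (1711 CPM) and Clec10a (687 CPM) were near their DC1 levels of 1835 and 613 CPM. In sham, Cd209a was lower in DC2 (331 CPM, 6 counts) than in DC1 (862 CPM, 18 counts). It was 1134 and 1237 CPM in DC2 and DC1 at day 2, and 2027 and 2170 CPM at day 14. Zbtb46 was at 0 in DC2, but a count of it was present in only 11 of all 508 dendritic cells and in none of DC5. Its absence therefore does not set DC2 apart. Of the 10 leading genes of DC2, Lyz2 and F13a1 were on the monocyte list and none on a list of dendritic markers.

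DC3 was low in class II and high in Klf4, a transcription factor on the list of type 2 conventional markers, with 522 CPM, and in Cd7, a surface protein of lymphocytes and dendritic precursors, with 1469 CPM. Clec9a, a receptor for dead cells found on type 1 conventional cells and dendritic precursors, was at 292 CPM. Flt3, pooled over groups, was higher than in any other code (364 CPM). In sham it was 479 CPM in DC1 (10 counts) and 226 CPM in DC3 (3 counts). Siglech was at 276 CPM, with a count in 17 of 90 cells. Its leading genes by ratio were S100a9 and S100a8, whose counts came from 1 cell.

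DC4 had high class II. Ccr7, the receptor that guides mature dendritic cells to lymph nodes, was at 293 CPM, from counts in 3 of its 63 cells. Cd83, a maturation marker, was at 233 CPM, and H2-Oa and H2-DMb2 were at 303 and 254 CPM. Ccr7 in all dendritic cells was 345 CPM in sham replicate 1, and of the other 10 libraries none exceeded 71.8 CPM. No gene of the marker lists stood among the 10 leading genes of DC4, which began with Ffar2, a short-chain fatty acid receptor, Havcr2, the checkpoint receptor TIM-3, and Pmaip1, a pro-apoptotic protein.

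DC5 was plasmacytoid-like. Of its 10 leading genes 5 were on the plasmacytoid list: Cox6a2 (1677 CPM), Klk1 (940 CPM), Ly6d (733 CPM), Siglech (6494 CPM) and Ccr9 (540 CPM), a chemokine receptor. Ly6d was higher in B cells (2324 CPM). Siglech was counted in 57 of 61 cells, 93.4% (84.1% to 98.2%). Irf8, the transcription factor on which plasmacytoid and type 1 cells depend, was at 5096 CPM, and Tcf4, the plasmacytoid regulator, at 1213 CPM.

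**Figure D1:**
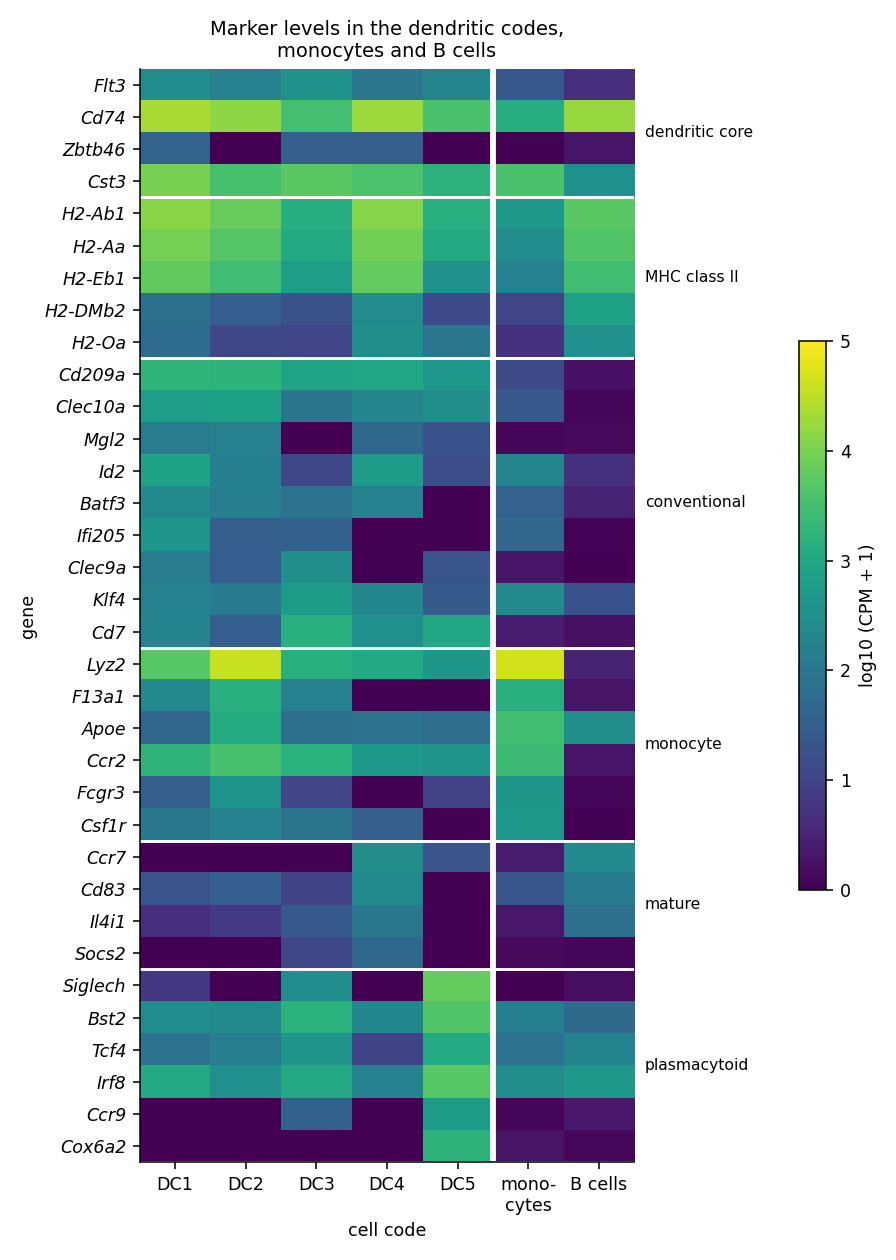
Level of each gene (rows, grouped by programme) in the pooled cells of the 5 dendritic codes and in blood monocytes and B cells (columns), as log10 of CPM plus 1. DC2 shares high Lyz2 and F13a1 with monocytes, and DC5 has the highest Siglech (6494 CPM, against 276 CPM in DC3) and Cox6a2.

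In day 14 blood, dendritic cells formed a larger share of cells than in sham or day 2 stroke blood. They made up 0.537%, 0.589%, 0.541% and 0.342% of cells in the sham libraries, 0.316%, 0.551%, 0.0622% and 0.532% at stroke day 2, and 1.75%, 3.35% and 1.78% at day 14. Every day 14 library exceeded every sham and day 2 library. Such separation, in either direction, was common among the 37 finer types of blood cell. It held for 12 of them (32.4%) between day 14 and sham and for 18 (48.6%) between day 14 and day 2. In edgeR's quasi-likelihood test on cells per library, with Benjamini-Hochberg adjustment over 9 coarse types, the share rose against sham by 2.18 ± 0.60 (log2, SE; adjusted p 0.0390) and against day 2 by 2.66 ± 0.61 (adjusted p 0.0122). The same test called 11.1% and 22.2% of the coarse types in these comparisons. An exact two-sided permutation test gave 0.0571 for both, the smallest p that 4 against 3 libraries allow. The call against sham was lost (edgeR adjusted p 0.0531 to 0.129) without sham replicate 2, 3 or 4, day 2 replicate 1, or any day 14 replicate. It was also lost with a block by replicate number, a term that ties day 14 to the other groups by number only.

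Day 2 stroke and sham did not differ detectably in the dendritic share: 0.365% ± 0.228 (SD, n = 4) against 0.502% ± 0.109 (SD, n = 4), a log2 difference of -0.48 ± 0.56 (edgeR adjusted p 0.628). Without day 2 replicate 3 it was -0.12. None of the 9 coarse types was called in this comparison (0%).

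Shares are relative, so more dendritic cells and fewer other cells cannot be told apart. The neutrophil share was 12.4% to 48.5% in sham, 11.7% to 69.6% at day 2 and 11.4% to 22.4% at day 14, and its part in the result was not tested. Among cells other than neutrophils, dendritic cells made up 0.768% ± 0.275 (SD, n = 4) in sham, 0.879% ± 0.545 (SD, n = 4) at day 2 and 2.84% ± 1.28 (SD, n = 3) at day 14. Day 14 still did not overlap with either other group, but edgeR no longer called the rise against sham (1.89, adjusted p 0.24) or against day 2 (1.71, adjusted p 0.361). Per 100 monocytes there were 5.88, 3.23, 4.87 and 1.98 dendritic cells in sham, 4.05, 6.10, 0.402 and 7.30 at day 2, and 12.7, 16.1 and 16.9 at day 14. The range at day 14 therefore lay above both other groups on this scale also.

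**Figure D2:**
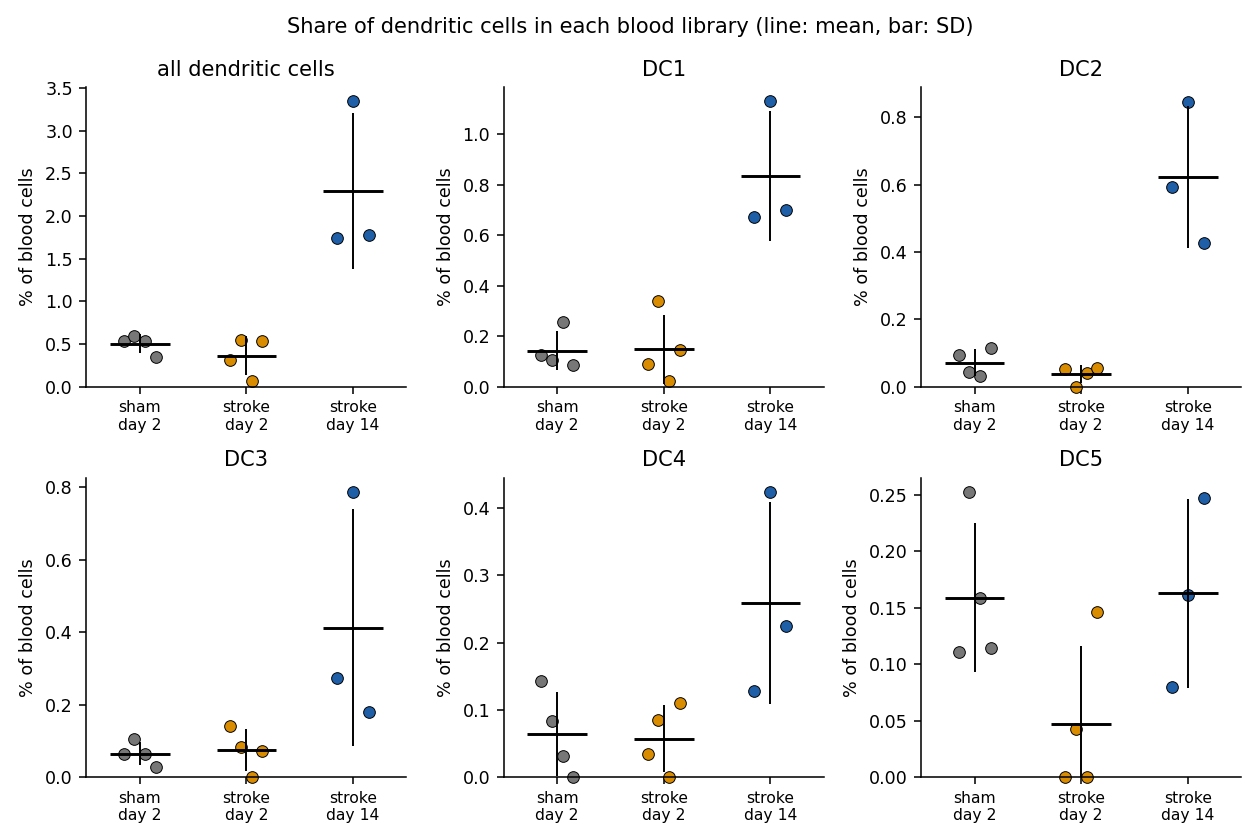
Percent of all blood cells that were dendritic cells, in total and by code (y axes), for each library (points) of sham, stroke day 2 and stroke day 14, with the mean (line) and SD (bar). All dendritic cells together reached 1.75% to 3.35% at day 14, above every other library, whereas DC5 had a similar mean in sham (0.159%) and at day 14 (0.163%).

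By code, DC1, DC2 and DC3 rose as shares of blood cells at day 14. DC2 had the highest point estimate, from 0.0707% ± 0.04 (SD, n = 4) in sham to 0.622% ± 0.211 (SD, n = 3), a log2 difference of 3.07 ± 0.63 (edgeR adjusted p 0.00657). DC1 went from 0.143% to 0.833% (2.54 ± 0.71, adjusted p 0.0218) and DC3 from 0.0651% to 0.413% (2.59 ± 0.83, adjusted p 0.0443), both by edgeR. DC4 did not pass the test (0.0645% and 0.259%, edgeR adjusted p 0.187), nor did DC5 (0.159% and 0.163%, a log2 difference of 0.02 ± 0.92, edgeR adjusted p 0.985). These p-values are adjusted over 37 finer types of blood cell, of which 8 (21.6%) were called, 4 (10.8%) of them higher. The call of DC2 held in all 11 fits that left out 1 library, with 2.79 the lowest log2 difference. DC3 lost its call in 7 of these 11 fits and DC1 in 3. Both also lost it among cells other than neutrophils (edgeR adjusted p 0.251 and 0.195) and with the replicate block (edgeR adjusted p 0.0852 and 0.0709). Over the 5 alternatives that kept all libraries, the log2 difference was 2.15 or more for DC3 and 2.17 or more for DC1. Since Apoe and F13a1 both lead DC2 and rose in dendritic cells at day 14 (below), more cells of this code and a higher level of these genes in cells assigned to it cannot be told apart. Dendritic cells other than DC2 made up 0.228% to 0.547% of cells in sham, 0.0207% to 0.551% at day 2 and 1.15% to 2.5% at day 14.

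Against day 2, the same codes were called by edgeR: DC1 rose by 2.57 (adjusted p 0.0186), DC2 by 3.83 (adjusted p 0.00140) and DC3 by 2.42 (adjusted p 0.0359). The call of DC2 held in all 11 fits without 1 library and in the 5 other alternatives. That of DC3 held in 7 of the 11 and was lost in all 5 others (adjusted p 0.0535 to 0.391). That of DC1 ended when replicate 2 of day 14 was left out (adjusted p 0.0620) and in 3 of the 5 others. In that comparison 35.1% of the finer types were called, and 24.3% were called higher. DC4 gave 2.16 (adjusted p 0.0867) and DC5 1.69 (adjusted p 0.173), which did not pass. Without replicate 4 of day 2, which held 8 of the 9 DC5 cells of that group, DC5 gave 3.87 (adjusted p 0.0166). Between day 2 and sham no finer type was called (0%), and the smallest adjusted p of a dendritic code was 0.599, for DC5.

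The make-up of the dendritic cells differed in DC5. Of the dendritic cells in a library, the plasmacytoid-like DC5 made up 20.6%, 42.9%, 29.4% and 33.3% in sham. The share was 0%, 7.69% and 27.6% in day 2 replicates 1, 2 and 4, and 4.59%, 4.82% and 13.9% at day 14. All day 14 values lay below all sham values. With dendritic cells as the total, a fit added after seeing the data, edgeR gave a fall of DC5 by 2.11 ± 0.52 (log2, SE; adjusted p 0.00128 over 5 codes) between sham and day 14. The exact permutation test gave 0.0571, the smallest p possible, and 0.286 after adjustment over the 5 codes. DC2 made up 17.6%, 7.14%, 5.88% and 33.3% in sham and 33.9%, 25.3% and 24.1% at day 14, a difference that did not pass (edgeR adjusted p 0.190). Shares within 1 total move against each other, so a lower DC5 share and a higher share of the rest are 1 observation.

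**Figure D3:**
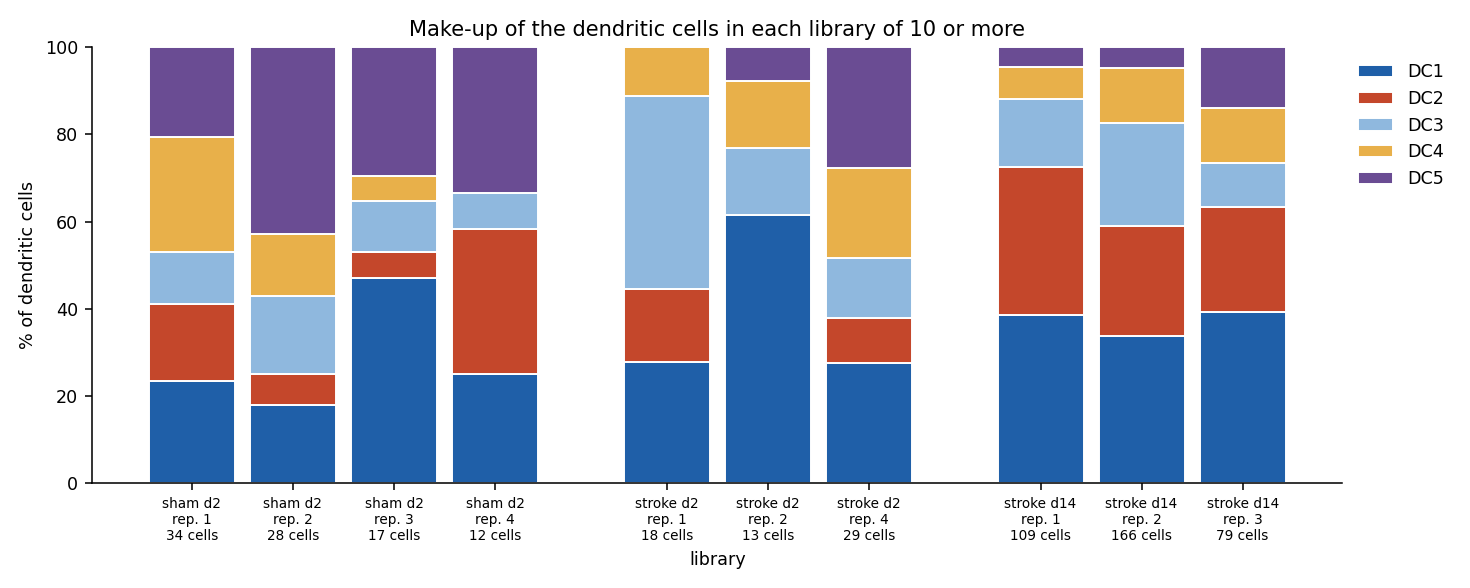
Percent of dendritic cells in each code (stacked bars, y axis 0 to 100) for the 10 libraries of 10 or more dendritic cells, with the cell number under each bar. DC5, the topmost segment, takes 20.6% to 42.9% in sham and 4.59% to 13.9% at day 14.

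Expression within dendritic cells was compared on counts summed per library. Of 604 genes tested with edgeR, 2 were called between day 14 and sham (0.331%), both higher, and 43 had an unadjusted p under 0.05. With no filter on low counts, 14 genes were called higher and 9 lower of 12628 tested. In summed bulk values, more cells of a kind and more RNA per cell cannot be told apart. Apoe was 48.8, 120, 83.5 and 207 CPM in sham replicates 1 to 4, 81.2, 0 and 30.7 CPM in day 2 replicates 1, 2 and 4, and 763, 445 and 525 CPM at day 14. The day 14 libraries were all above the others. Libraries of day 14 and sham did not overlap, in either direction, for 44 of the 604 genes (7.28%). Apoe rose between sham and day 14 by 2.61 ± 0.47 on the log2 scale (edgeR adjusted p 0.0171) and between day 2 and day 14 by 3.67 ± 0.60 (edgeR adjusted p 0.00673). It reached the level that the filter on low counts asks for in the day 14 libraries alone. Apoe was thus tested only because it was high there, and its calls are not independent of that entry. Its sham levels rest on 8 counts in all, against 168 at day 14. Monocytes held 1811 to 3259 CPM of Apoe in sham and 2870 to 3912 CPM at day 14.

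F13a1 was 194, 285, 126 and 105 CPM in sham, 364, 224 and 210 CPM at day 2, and 859, 494 and 767 CPM at day 14. The day 14 libraries did not overlap with the others. F13a1 rose against sham by 1.86 ± 0.36 on the log2 scale (edgeR adjusted p 0.0245), whereas against day 2 the difference of 1.35 ± 0.37 did not pass (edgeR adjusted p 0.232). Without its day 14 levels F13a1 would not have passed the filter on low counts either. It had 17 counts in sham and 200 at day 14. Neither Apoe nor F13a1 was called against sham without sham replicate 1 or 3 or without day 14 replicate 1 or 3 (adjusted p 0.0889 to 0.174), while their log2 differences stayed at 2.19 or more and at 1.72 or more. F13a1 also lost its call without Scrublet-marked cells (edgeR adjusted p 0.0607) and without DC5 cells (edgeR adjusted p 0.0778). Its log2 difference was 1.63 or more over the 12 alternatives other than leaving out 1 library. The call of Apoe against day 2 was lost without day 2 replicate 4 (adjusted p 0.0894) or day 14 replicate 1 (adjusted p 0.0753).

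Both genes had their highest pooled level in DC2. Pooled over libraries, Apoe in DC2 was 331 CPM in sham (Poisson 95% interval 121 to 719, 13 cells), 378 CPM at day 2 (103 to 968, 8 cells) and 1515 CPM at day 14 (1283 to 1777, 98 cells). F13a1 in DC2 was 826 CPM (462 to 1363) in sham, 1040 CPM (519 to 1860) at day 2 and 1656 CPM (1413 to 1929) at day 14. In the other codes Apoe was at most 159 CPM in any group. With the DC2 cells removed, an alternative added after seeing the data, both genes fell under the filter on low counts and were not tested. Apoe was then 0 to 93.9 CPM in sham and 46.5 to 95.6 CPM at day 14, on at most 11.9 counts per library, and the groups overlapped. F13a1 was 33.2, 0, 47.2 and 0 CPM in sham and 397, 125 and 41.3 CPM at day 14, also with overlap. The summed level of the 12 monocyte markers in dendritic cells was 6315 to 23260 CPM in sham, 2504 to 12598 CPM at day 2 and 18137 to 31627 CPM at day 14, with all 12 detected. Lyz2 alone, with a mean of 7039 CPM in sham and 17118 CPM at day 14, made up most of the day 14 sums. Whether monocytes among the annotated dendritic cells had a part in the rise was not tested.

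**Figure D4:**
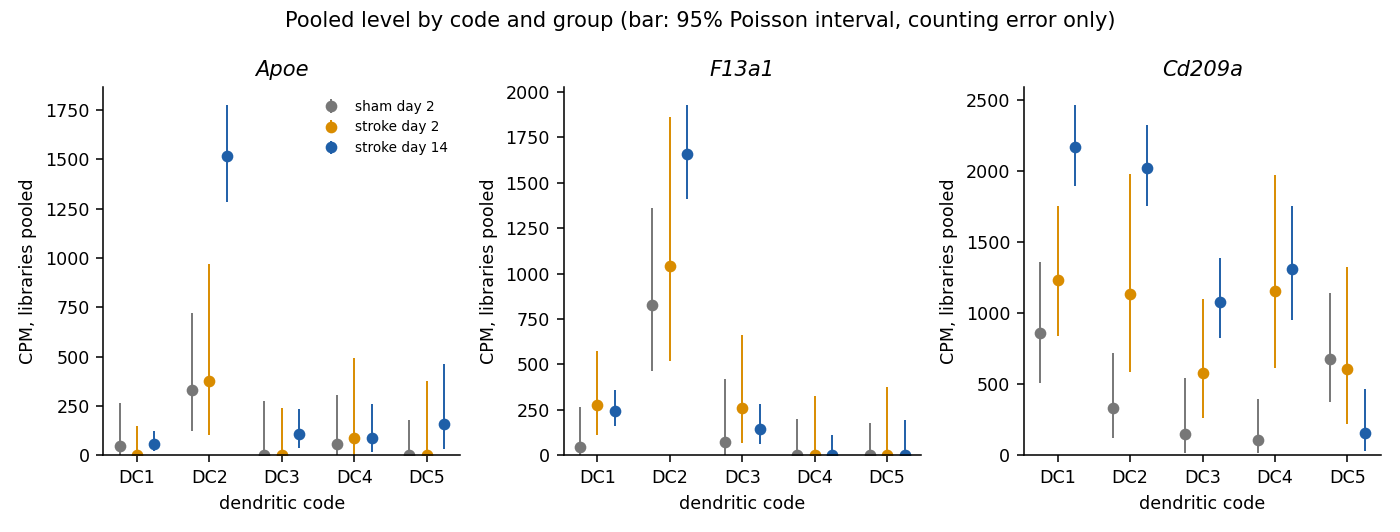
Pooled level in CPM (y axis) of Apoe, F13a1 and Cd209a in each dendritic code (x axis) by group (colours), with 95% Poisson intervals that cover counting error only and not the spread between libraries. At day 14, Apoe stands out in DC2 (1515 CPM), while Cd209a is high in DC1 to DC4.

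Among genes that did not pass against sham, Cd209a had the lowest p. It was 426, 691, 378 and 412 CPM in sham, 568, 0 and 1462 CPM at day 2, and 2239, 1585 and 1476 CPM at day 14. Every day 14 library was above every sham library, and the log2 difference was 1.88 ± 0.43 (edgeR adjusted p 0.0761). It did pass in 10 of 23 alternative fits, among them the one without DC5 cells (2.15, edgeR adjusted p 0.0489). Another of the 10 was the fit blocked by replicate number (2.09, edgeR adjusted p 0.0308), which ties day 14 to the other groups by number only. The pooled level was higher at day 14 in 4 codes: between sham and day 14 it was 862 and 2170 CPM in DC1, 331 and 2027 CPM in DC2, 150 and 1079 CPM in DC3, and 110 and 1309 CPM in DC4. In DC5 it was 681 and 159 CPM. Monocytes held 0, 1.95, 2.57 and 0 CPM in sham and 44.4, 39.6 and 23.2 CPM at day 14, and there Cd209a rose by 4.88 on the log2 scale (edgeR adjusted p 0.0148).

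The other genes of lowest p in this comparison, none of which passed, included Mndal and Ifi203, interferon-inducible genes of the Ifi200 family. Mndal was 49.8 to 199 CPM in sham and 387 to 643 CPM at day 14 (1.65, edgeR adjusted p 0.115), and Ifi203 39.9 to 570 CPM and 411 to 705 CPM (1.84, edgeR adjusted p 0.148). S100a10, the annexin A2 partner, was 199 to 520 CPM in sham and 802 to 871 CPM at day 14 (1.40, edgeR adjusted p 0.127), and Selenop, a selenium carrier, had a log2 difference of 1.04 (edgeR adjusted p 0.235). In the other direction stood Cd7 and Irf8, both high in DC3 or DC5. Cd7 was 396, 1344, 899 and 701 CPM in sham and 231, 456 and 240 CPM at day 14 (-1.31 ± 0.41, edgeR adjusted p 0.308). Irf8 was 1013, 2461, 2006 and 4271 CPM in sham and 547, 928 and 1400 CPM at day 14 (-1.23 ± 0.38, edgeR adjusted p 0.308). Fth1, ferritin heavy chain (-0.63), Mrpl52, a mitochondrial ribosomal protein (-0.95), and Ly6e (-0.69) completed that side, with edgeR adjusted p from 0.308 to 0.496 over these 5 genes.

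The plasmacytoid genes were also read within DC5. Siglech in all dendritic cells was 1070, 3467, 925 and 1744 CPM in sham, 0, 254 and 1318 CPM at day 2 and 189, 377 and 1060 CPM at day 14, with overlap between all groups (day 14 against sham -1.76 ± 0.67, edgeR adjusted p 0.496). Within DC5 the pooled Siglech level was 6665 CPM (5595 to 7879) in sham, 4579 CPM (3340 to 6127) at day 2 and 7320 CPM (6150 to 8648) at day 14. Irf8 within DC5 was 5740 CPM (4751 to 6874), 3765 CPM (2651 to 5190) and 5092 CPM (4125 to 6218).

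**Figure D5:**
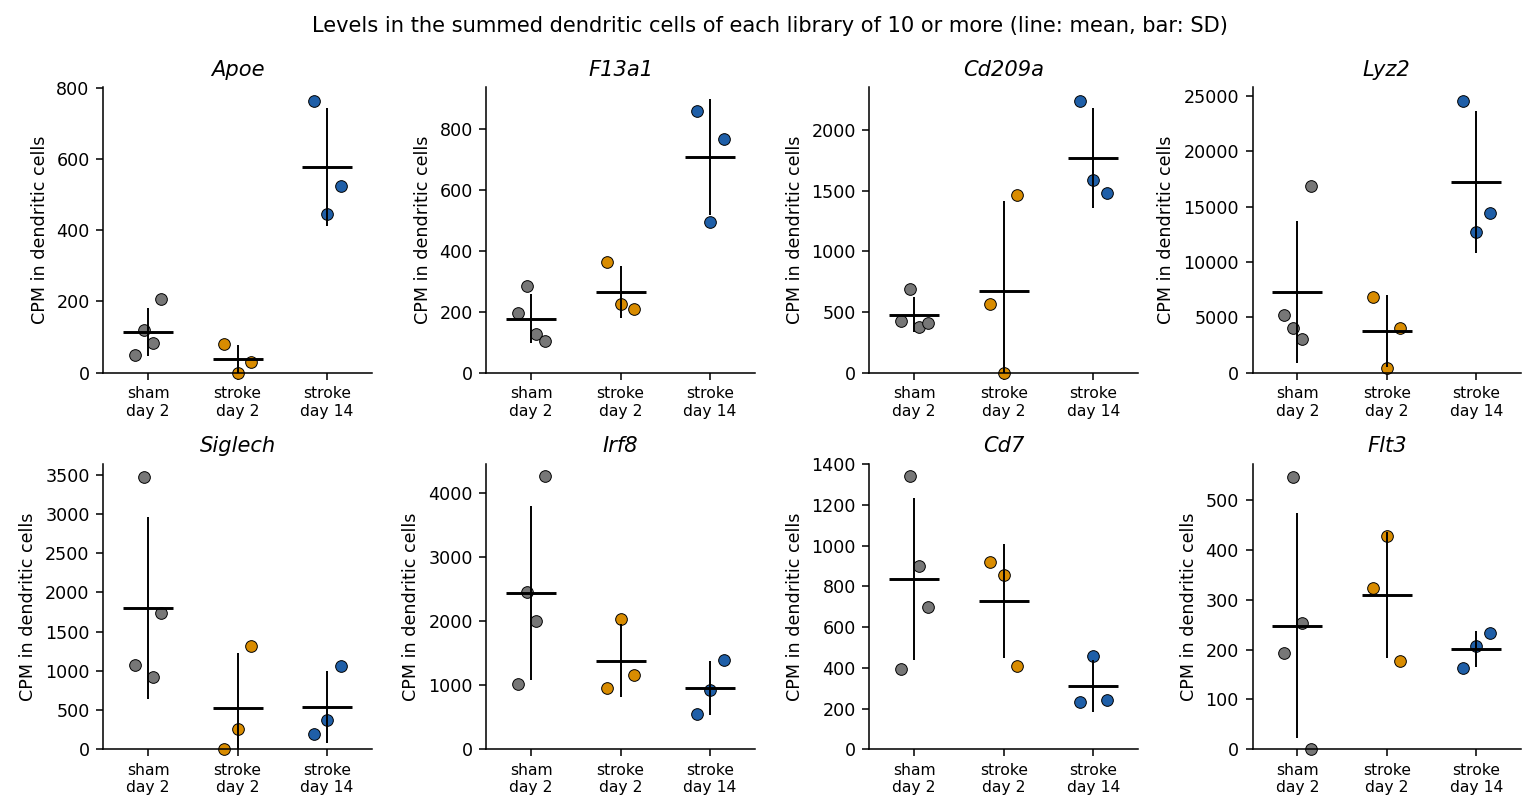
CPM in the summed dendritic cells of each library of 10 or more such cells (points), by group, with mean (line) and SD (bar). Apoe and F13a1 passed the test between sham and day 14; Cd209a (1476 to 2239 CPM at day 14) and the other 5 genes shown did not.

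Between day 2 and day 14, edgeR called 2 of 604 genes higher (0.331%) and none lower, with 49 genes at an unadjusted p under 0.05. Apoe was one. The other, Gm8995, a predicted gene named here after its values were seen, rose by 1.88 ± 0.36 on the log2 scale (edgeR adjusted p 0.0216). Leaving out any of the 3 day 2 libraries, or replicate 1 or 2 of day 14, ended its call (adjusted p 0.0753 to 0.141), as did 4 of 13 other alternatives, with log2 differences of 1.71 or more throughout. Lyz2 was 6844, 413 and 4054 CPM in day 2 replicates 1, 2 and 4 and 24578, 12746 and 14431 CPM at day 14, without overlap, as for 93 of the 604 genes (15.4%). Its log2 difference of 2.09 ± 0.57 did not pass (edgeR adjusted p 0.232). It did in 6 of 23 alternative fits, among them the replicate block, which ties day 14 to day 2 by number only (2.93, edgeR adjusted p 0.00921). In sham it was 5181, 4034, 3054 and 16847 CPM, so replicate 4 lay within the day 14 range. Clec7a, the beta-glucan receptor Dectin-1, gave 2.23 (edgeR adjusted p 0.187), Hpgd, which inactivates prostaglandins, 2.42, and Ccr2, the receptor by which monocytes leave the marrow, 0.88 (both edgeR adjusted p 0.232). The lowest p in the other direction belonged to Mrpl52 (-1.20), Snx5 (-1.35), Ssr4 (-0.96), Tspan13 (-1.01) and Ranbp1 (-1.03), none of which passed.

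Between day 2 and sham, edgeR called no gene (0% of 604), and DESeq2 called none either, with 32 genes at an unadjusted p under 0.05 in edgeR. Outside predicted and ribosomal protein genes, the lowest p values among higher genes belonged to Sla, H2-Aa, H2-Eb1, Rack1 and Pitpna. H2-Aa was 5284, 3559, 5300 and 1771 CPM in sham and 4978, 8901 and 6996 CPM at day 2, with overlap (0.65 ± 0.29). H2-Eb1 gave 0.75 ± 0.33. Among lower genes they belonged to Ly6e (-0.94), Cyth4 (-1.43), Atpif1, Akap13 and Srrm2, and the edgeR adjusted p was 0.822 for all 10.

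By role, no listed pathway had a member called by edgeR in any of the 3 comparisons. Genes enter a count here only where they passed the filter on low counts, and for these the median log2 difference over all 604 genes was -0.03, -0.04 and -0.00 for day 2 against sham, day 14 against sham and day 14 against day 2. Of the 15 class II genes 8 were tested, with medians of 0.48, 0.42 and -0.08. Cd74 was 13262, 7958, 16301 and 4014 CPM in sham, 11209, 20653 and 15951 CPM at day 2 and 17354, 13519 and 15638 CPM at day 14. Sham replicate 4, with 12 dendritic cells, was the lowest library for Cd74 and for H2-Aa. Of 15 class I genes 9 were tested, with medians of -0.21, 0.05 and 0.25; they include B2m, the common light chain.

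Receptors and regulators showed the same absence of calls. Of 15 cytokine receptor and signalling genes 3 were tested: Flt3, Ifnar2, a chain of the type I interferon receptor, and Ifngr1, of the interferon gamma receptor. Flt3 was 193, 546, 253 and 0 CPM in sham, 325, 428 and 177 CPM at day 2 and 163, 208 and 233 CPM at day 14, with overlap throughout. Of 18 dendritic transcription factors 5 were tested: Irf8, Id2, Tcf4, Zeb2 and Spi1. Of 18 trafficking receptors 5 were, led by Ccr2, which was 1169 to 1928 CPM in sham and 1974 to 2690 CPM at day 14 (0.68 ± 0.23, edgeR adjusted p 0.403). Of 20 pattern recognition genes 1 was tested, Clec7a, and of 15 interferon response genes 3, Ifitm3, Bst2 and Ifi27l2a. No gene of the co-stimulation, proliferation, type 1 conventional or mature migratory lists passed the filter, so none was tested here.

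Stress-related lists were also tested in few members. Of 15 immediate early and heat shock genes 5 were tested, with medians of 0.12, -0.43 and -0.31. The 10 glucocorticoid response genes summed to 298 to 585 CPM in sham, 932 to 1738 CPM in the 3 tested libraries of day 2 and 307 to 506 CPM at day 14. Only Tsc22d3, the glucocorticoid-induced leucine zipper GILZ, was tested among them: it was 164, 176, 267 and 0 CPM in sham, 382, 447 and 338 CPM at day 2 and 322, 164 and 122 CPM at day 14. These 3 day 2 libraries were above all others, while replicate 3, with 3 dendritic cells, was at 0, and the difference from sham, 1.01 ± 0.60 on the log2 scale, did not pass (edgeR adjusted p 0.822). Libraries of the 2 groups did not overlap for 42 of 604 genes (6.95%) in that comparison.

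Whether the day 14 changes differed between dendritic cells and monocytes of the same libraries was tested with a cell type by group term. Of 4241 genes, edgeR called 14 (0.330%), 11 with a higher day 14 minus sham change in dendritic cells (0.259%) and 3 with a lower one (0.0707%). F13a1 had the lowest p among the former, with a difference of 2.39 ± 0.43 on the log2 scale (edgeR adjusted p 4.3e-05): in monocytes it was 828 to 1962 CPM in sham and 1028 to 1142 CPM at day 14. Apoe differed by 2.55 ± 0.54 (edgeR adjusted p 0.00198) and Lyz2 by 1.47 ± 0.31 (edgeR adjusted p 0.00166). Bst2, the interferon-induced protein tetherin and a plasmacytoid marker, differed by -1.73 ± 0.30 (edgeR adjusted p 4.3e-05). Its mean was 1442 CPM in sham and 709 CPM at day 14 in dendritic cells, and 103 and 236 CPM in monocytes. Irf8 differed by -1.23 ± 0.29 (edgeR adjusted p 0.00963). With 1 library left out, F13a1 and Bst2 kept their calls in 10 of 10 fits, Apoe in 9, Lyz2 in 6 and Irf8 in 5. Irf8 was lost without sham replicate 2 or 4, replicate 2 of day 2, or replicate 1 or 3 of day 14, Lyz2 without sham replicate 2 or 3 or day 14 replicate 1 or 3, and Apoe without sham replicate 1.

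Without DC2 cells 3 of the 14 genes were still called, Bst2, S100a10 and Shtn1. Of the lost ones, Lyz2 gave 1.49 (edgeR adjusted p 0.1345), near the 1.47 with all cells. F13a1 gave 3.12 (edgeR adjusted p 0.145) and Apoe 1.42 (edgeR adjusted p 0.835). Both then had few counts in any sham library, at most 0.991 for F13a1 and 1.97 for Apoe. Their values are therefore near the floor and do not show whether the difference holds outside DC2. Without DC5 cells 7 genes were called, 6 of them among the 14: F13a1, S100a10, Apoe, Shtn1, Dpep2 and Pmaip1. Bst2 then gave -0.58 (edgeR adjusted p 0.827) and Irf8 -0.44 (edgeR adjusted p 0.846). For Cd209a the difference did not pass (-2.44 ± 0.74, edgeR adjusted p 0.196).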

How the data were processed

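The 11 blood libraries were made by Drop-seq, each from a pool of 2 mice. Per the file headers, the authors deposited 1 table of expected counts per gene and cell for each library and 1 table of cell annotation with total counts and a percent of mitochondrial counts per cell. In each library 0.490% to 0.799% of values above 0 were whole within 1e-06; the step that made them fractional, the aligner and the cell filters are not given in the sources used here. The submitters' processing notes name mm10 and Seurat. Tables held 16623 genes by symbol.

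All deposited cells were kept. Expected counts were summed per library over the dendritic cells (libraries of 10 or more) and rounded, then tested with edgeR 4.0.16 in R 4.3.3: TMM scaling, filterByExpr with a minimum count of 10, quasi-likelihood test, Benjamini-Hochberg adjustment, called at 0.05, all 3 groups in 1 fit. Shares were tested with edgeR on cells per library for types of 50 or more cells, and with exact permutation tests in R. Binomial and Poisson intervals came from scipy 1.17.1. DESeq2 1.42.0 was an alternative, and Scrublet ran in scanpy 1.11.5. The scripts were tested on simulated data. A gene counts as present in a cell at 0.5 or more.

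Named genes were up to 10 called genes per direction at 50 CPM or more with no overlap of libraries, the 5 of lowest p per direction where fewer than 5 were called, the 20 defining genes, and up to 4 of the most abundant members of each list; genes beyond these were named after their values were seen. Some genes that the rule names are not reported here. The members and lists were chosen with earlier results of these data known. Deviations from the group mean correlated between sham and day 2 libraries of the same number at r = 0.14, 0.31 and 0.18 (replicates 1, 2 and 4). Libraries of different numbers reached 0.18 (sham replicate 2 and day 14 replicate 3). These correlations do not settle whether the numbers pair libraries. The main tests used no pairing, and a block by number was an alternative. The day 2 and day 14 groups share the sham controls.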

Additional observations from a re-analysis of the deposited data

Results flagged for a closer look

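In 4 of 43 groups of library values looked at, 1 library lay far from the others of its group. The cutoffs are set so that chance flags about 1 in 20 groups of normally spread values. The rule needs at least 4 libraries, so no day 14 values were looked at, and gene levels were looked at in sham only. In sham replicate 2, Cd209a was 691 CPM in dendritic cells, against 378 to 426 CPM in the other sham libraries. Sham replicate 4, with 12 dendritic cells, was apart in Hpgd (627 CPM), Ly6e (3243 CPM) and Lyz2 (16847 CPM); for Lyz2 the other sham libraries held 3054 to 5181 CPM, and DC2 made up 33.3% of the dendritic cells of this library.

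For 14 genes the day 14 minus sham change differed between dendritic cells and monocytes by edgeR's interaction test. On the log2 scale the difference was 2.39 for F13a1, 2.55 for Apoe, 1.47 for Lyz2, 1.19 for Ccr2, 1.21 for Lgals3, 2.32 for Mcemp1 and 3.35 for Cd302. With 1 library left out, Lgals3 kept its call in 3 of 10 fits, Ccr2 and Cd302 in 5 and Mcemp1 in 7. Cd302, with 2 counts in sham dendritic cells, ranged from 2.81 to 8.78 over these fits; 8.78 came without sham replicate 1. The mean of Cd302, a C-type lectin, went from 12.2 to 140 CPM in dendritic cells and from 593 to 441 CPM in monocytes. S100a10 differed by 1.80, Shtn1 by 2.81 and Fcor by 3.75, with calls kept in 10 of 10, 8 of 10 and 4 of 8 such fits. In sham dendritic cells Fcor had 2 counts in all and Mcemp1 7, so their differences also rest on values near the floor. Shtn1 was 121 and 133 CPM in dendritic cells in sham and at day 14, and 76.9 and 16.1 CPM in monocytes, where it fell (edgeR adjusted p 0.0425). The difference was negative for Bst2 (-1.73), Irf8 (-1.23) and Pmaip1 (-2.07). Irf8 went from a mean of 2348 to 950 CPM in dendritic cells and from 279 to 400.1 CPM in monocytes, and Pmaip1 from 220 to 61.4 CPM and from 65.2 to 78.2 CPM. Pmaip1 kept its call in 2 of 10 fits with 1 library left out, and without sham replicate 1 it gave -0.21 (adjusted p 0.964). The fitted value of 8.32 for Dpep2 depends on the prior count, since all sham dendritic cells were at 0. Set against a floor of 3 counts over the group, its pooled level in dendritic cells at day 14 (54.3 CPM, 17 counts) was 1.65-fold higher. This ratio leaves out the counting error of the 17 counts. Monocytes went from 191 to 75.6 CPM (edgeR adjusted p 0.0209).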

How the results depend on the processing

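The number of dendritic cells, 12 to 34 per sham library and 13 to 29 per day 2 library tested, limits every expression result, and each library's few counts leave most genes untested. Among 1425 results recomputed under an alternative, 1187 kept their direction and their side of the threshold, or a count within 1.5 times, and 21 changed sign. The cause was not tested. Most of the 1187 were single genes and codes (1052). For the main results, the dendritic shares and the numbers of codes or genes called, 135 were kept. Of their other recomputations, 43 counts moved further, 12 lost their call and 2 changed sign.

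The dendritic share between day 2 and sham (-0.48) became 0.17 among cells other than neutrophils and 0.067 among monocytes and dendritic cells. It was -0.74 to -0.12 when 1 library was left out. Day 14 against sham gave 1.89 without neutrophils, 2.14 with the replicate block (adjusted p 0.110) and 1.80 to 2.34 with 1 library left out, and 0.0571 by the exact test; day 14 against day 2 gave 1.71, and 0.0571 by the exact test. The dendritic codes called, 3 in either comparison, were 1 without neutrophils. For sham they were 1 with the replicate block and 1 to 3 with 1 library left out. With dendritic cells as the total, 1 code was called for sham: DC5, which was lower (-2.11) and not among the 3. Against day 2 there were 1 among monocytes and dendritic cells and 1 with cells of 500 counts or more. With dendritic cells as the total there were 0, and with 1 library left out 1 to 3. The exact test gave 0 in both comparisons. That was fixed beforehand, since 0.0571 is the smallest p that 4 against 3 libraries allow. Codes that changed sign were far from the threshold. DC1 between day 2 and sham (-0.03) gave 0.51 without neutrophils, 0.46 among monocytes and dendritic cells, 0.70 with 500 counts, 0.10 without Scrublet-marked cells and -0.70 to 0.36 with 1 library left out. DC4 gave 0.22, 0.12 and -1.01 to 0.40 for the first, second and last of these, and DC3 -0.41 to 0.59 for the last. DC5 between day 14 and sham (0.02) gave -0.26, -0.15, -0.033 without Scrublet-marked cells, and -0.40 to 0.35.

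Genes called between day 14 and sham (2) were 23 with no filter (of 12628 tested, median log2 difference 0.48; 14 higher, 9 lower), 24 with libraries of 20 or more dendritic cells (14 higher, 10 lower), 5 with a minimum count of 3, 1 without Scrublet-marked cells, 0 without DC2, where Apoe and F13a1 were not among the 493 genes tested, and 0 to 5 with 1 library left out (5 without sham replicate 4). Both sets held Ccr7 and Cox6a2, and also S100a8 and S100a9, which rest on 1 cell of sham replicate 1, and both were the 2 genes called between day 2 and sham under the same settings. At 20 or more dendritic cells, sham is left with replicates 1 and 2. Day 2 is left with replicate 4 alone, which is then assumed to vary like the other groups. Between day 14 and day 2 (2) they were 5, 6 (2 higher, 4 lower) and 6, 4 with only the compared groups, 1 without DC5, 0 without DC2 (Apoe not tested) and 0 to 3 with 1 library left out. The replicate block called 0, 3 and 2 genes; apart from the counts and share above it added Cd209a, and Lyz2 in place of Gm8995 between day 14 and day 2. Day 14 numbers correlated with the same sham numbers at 0.10, -0.04 and -0.13. With the same day 2 numbers they correlated at 0.22 and -0.03 (replicates 1 and 2). The study identifiers of day 14 share no stem with the others, so the block joins day 14 to them by number only. Genes that differed between dendritic cells and monocytes (14) were 3 without DC2, 7 without DC5 and 6 to 18 with 1 library left out, where leaving out sham replicate 2, sham replicate 3 or day 14 replicate 3 gave 6, and day 14 replicate 1 or 2 gave 8. A minimum of 5 dendritic cells left the same libraries in the fits.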
